A study of Mus musculus with 33 samples.

Results

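The immunoglobulin heavy chain variable segments are the genes whose symbols begin with Ighv. Of 185 such genes in the deposited count table, 120 had 50 or more counts summed over the 33 libraries, and these 120 segments are described here. Annotation lists 101 of them as gene segments and 19 as pseudogenes. They held 1021120 counts in all, against 610 counts on the other 65 Ighv genes, of which 26 had no count. The total per segment ran from 50 to 80637 with a median of 3116 counts. The members were chosen by that total over all libraries, so it is a description only. Just inside the minimum stood Ighv1-14 with 50, Ighv1-24 with 55 and Ighv1-37 with 59 counts, and just outside it Ighv1-62 with 47, Ighv1-21 with 46 and Ighv1-35 with 43. Among the 65 genes left out, 51 were pseudogenes. With the MPP libraries, which held most of the counts, set aside, 118 of the 120 segments would still reach 50.

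Each B cell builds its antibody heavy chain gene by joining 1 variable (V), 1 diversity (D) and 1 joining (J) segment with the Rag recombinase, and the joined V segment becomes the 5′ part of the heavy chain messenger RNA. A clone of B cells or plasma cells therefore carries its own V segment, and plasma cells make far more heavy chain RNA than resting B cells. Unjoined V segments can also be transcribed in B cell precursors, before joining. The segments lie in a row on mouse chromosome 12, with families Ighv2 and Ighv5 nearest the D segments and the large family Ighv1, interspersed with Ighv8, farthest from them.

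The libraries were made from polyadenylated RNA of mouse bone marrow, with 3 libraries for each of 11 populations. The stem cell libraries are LT-HSC (long-term) and ST-HSC (short-term), the progenitor libraries MPP (multipotent), CMP (common myeloid), GMP (granulocyte and macrophage), MEP (megakaryocyte and erythroid) and CLP (common lymphoid), the mature libraries CD3e T cells, B220+ cells and CD11b+ cells, and BM is whole bone marrow. Stem and progenitor samples went through a depletion of lineage-positive cells before staining and sorting, mature samples were stained and sorted directly, and no sort is named for BM. Strain, age, sex, genotype, sort gates and pooling of animals are not given in the sources used here, and no treatment of the mice is named. Whether the 3 libraries of a population came from different mice is not stated, and p-values therefore describe library-to-library spread, which may be technical. Library totals ran from 11997186 to 32022325 counts. In these bulk samples, fewer cells of a type and less RNA per cell cannot be told apart.

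The V exons below belong to segments that led a population and to a pseudogene that carried many reads. They come from the GENCODE M21 transcripts of the mouse build GRCm38, written 5′ to 3′ on the coding strand, and are shown from base 6 to the 3′ end (from base 11 in Ighv6-3, and whole in Ighv1-41), at most 300 bases each. Capitals mark the codon of the second conserved cysteine of the V domain near the 3′ end. Ighv1-58 led MPP, Ighv6-3 led CD3e T cells, Ighv1-26 led B220+ cells, Ighv1-12 led ST-HSC and Ighv1-23 led CMP. Ighv1-41 is the pseudogene with most reads in CD11b+ cells.
Ighv1-58: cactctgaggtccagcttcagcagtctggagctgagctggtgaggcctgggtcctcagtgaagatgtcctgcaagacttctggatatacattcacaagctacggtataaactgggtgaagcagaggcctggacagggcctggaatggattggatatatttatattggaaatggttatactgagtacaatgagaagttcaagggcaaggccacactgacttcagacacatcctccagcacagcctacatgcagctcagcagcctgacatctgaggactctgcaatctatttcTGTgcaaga
Ighv6-3: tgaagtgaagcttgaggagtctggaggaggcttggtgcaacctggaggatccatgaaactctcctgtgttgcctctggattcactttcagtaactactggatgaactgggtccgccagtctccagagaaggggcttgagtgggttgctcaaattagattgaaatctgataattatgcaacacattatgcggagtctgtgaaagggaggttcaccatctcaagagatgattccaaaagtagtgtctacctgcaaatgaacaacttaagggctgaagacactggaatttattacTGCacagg
Ighv1-26: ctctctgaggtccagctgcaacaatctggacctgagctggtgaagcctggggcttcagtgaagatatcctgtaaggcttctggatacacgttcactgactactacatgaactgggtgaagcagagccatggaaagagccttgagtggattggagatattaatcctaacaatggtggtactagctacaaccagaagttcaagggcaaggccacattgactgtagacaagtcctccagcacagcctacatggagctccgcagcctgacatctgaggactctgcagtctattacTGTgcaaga
Ighv1-12: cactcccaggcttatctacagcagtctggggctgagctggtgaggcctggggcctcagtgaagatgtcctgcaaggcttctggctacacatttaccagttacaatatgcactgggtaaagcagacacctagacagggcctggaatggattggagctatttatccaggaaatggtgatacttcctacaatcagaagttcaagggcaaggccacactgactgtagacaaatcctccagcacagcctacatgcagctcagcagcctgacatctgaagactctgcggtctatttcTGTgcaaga
Ighv1-23: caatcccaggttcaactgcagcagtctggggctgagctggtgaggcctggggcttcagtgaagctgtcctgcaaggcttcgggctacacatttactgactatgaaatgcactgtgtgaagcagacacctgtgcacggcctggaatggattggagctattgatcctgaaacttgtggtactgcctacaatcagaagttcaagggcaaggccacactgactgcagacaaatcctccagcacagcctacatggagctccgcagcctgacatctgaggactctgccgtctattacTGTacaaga
Ighv1-41: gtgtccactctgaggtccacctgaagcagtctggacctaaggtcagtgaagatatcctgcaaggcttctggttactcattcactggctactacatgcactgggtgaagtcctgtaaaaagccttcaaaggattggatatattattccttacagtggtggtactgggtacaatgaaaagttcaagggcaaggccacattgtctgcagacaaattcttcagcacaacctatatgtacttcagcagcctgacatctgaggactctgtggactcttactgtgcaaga

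The cysteine codon was searched on the coding strand, within 15 bases of the 3′ end, as TAT or TAC, then TAT, TAC, TTT or TTC, then TGT or TGC. It was found in 97 of the 101 members listed as gene segments and in 15 of 19 pseudogenes. In its reading frame 0 of these 97 gene segments and 13 of the 15 pseudogenes held a stop codon. In Ighv1-41, which is 283 bases long against a median of 305, the codon pattern was not found, and its frame was not read. V exons ran from 283 to 351 bases, and the shares below are shares of counts, not corrected for these lengths. The segments are near copies of each other: of all 50-base windows in a V exon, a median of 78.2% occurred in no other Ighv exon. Under 50% of the windows were unique in 13 segments. None was unique in Ighv1-72, nor in Ighv1-62-2 and Ighv1-71, whose V exons are identical, so the split of reads between such copies is uncertain.

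Reads on these segments were concentrated in 3 populations. The segments took 0.987%, 1.01% and 0.961% of all counts in the MPP libraries, 0.547%, 0.544% and 0.539% in CD3e T cells, 0.194%, 0.191% and 0.188% in B220+ cells, and 0.0552%, 0.0574% and 0.0568% in BM. No 2 of these populations overlapped. The other populations were lower, at 0.00185% ± 0.000424 in LT-HSC (SD, n = 3, as for all such values), 0.00927% ± 8.21e-05 in ST-HSC, 0.00892% ± 0.000191 in CMP, 0.00111% ± 0.000195 in GMP, 0.000955% ± 0.00045 in MEP, 0.00824% ± 0.000308 in CLP and 0.0211% ± 0.000214 in CD11b+ cells. Within MEP the library with the largest total, replicate 1, was lowest at 0.000443%, against 0.00129% and 0.00113% in the others. The library with the largest total was also lowest in LT-HSC (replicate 3, 0.00136%, against 0.00215% and 0.00203%). The same held in GMP (replicate 2, 0.00089%, against 0.00121% and 0.00124%). With smaller relative differences, it also held in ST-HSC, MPP, CMP and B220+ cells. Of all Ighv counts, 50.8% came from MPP, 31.3% from CD3e T cells and 12% from B220+ cells. By CPM, the count per library brought to a common total with the normalization factors of edgeR, 58 segments were highest in MPP, 25 in CD3e T cells, 22 in B220+ cells, 9 in CMP, 4 in CD11b+ cells and 2 in ST-HSC.

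**Figure D1:**
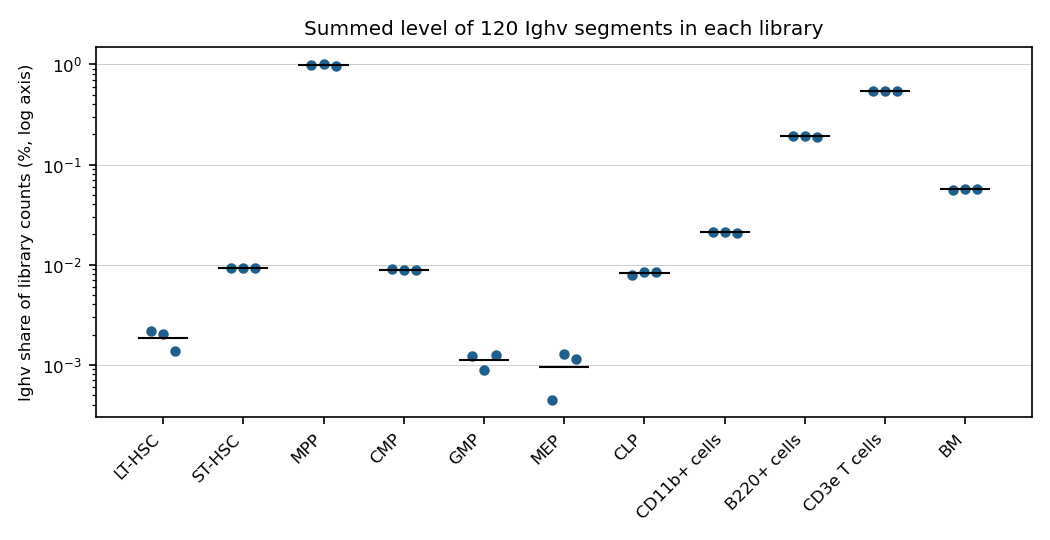
Share of all counts of a library that fell on the 120 Ighv segments, in percent on a log axis, for each of 3 libraries per population (points) with the mean (bar). MPP sit near 0.988%, CD3e T cells near 0.543% and B220+ cells near 0.191%, above BM at 0.0564%, while LT-HSC, GMP and MEP lie below 0.0022%.

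Between the populations compared below, the share was 17.5-fold higher in MPP than in BM, 9.63-fold higher in CD3e T cells than in BM, 3.38-fold higher in B220+ cells than in BM, and 2.85-fold higher in CD3e T cells than in B220+ cells. It was 23.1-fold higher in B220+ cells than in CLP and 106-fold higher in MPP than in ST-HSC. In each of these pairs the libraries did not overlap, and the two-sided exact permutation p was 0.10, the smallest that 3 libraries against 3 allow. B lineage genes ordered these populations otherwise. The summed level of 14 B lineage markers was 10518 to 10695 CPM in B220+ cells, 1301 to 1323 CPM in CD3e T cells, 123 to 127 CPM in MPP and 1723 to 1762 CPM in BM, and none of the 14 was at 0 in them. The summed level of 10 plasma cell markers was 8192 to 8435 CPM in MPP, 3925 to 3983 CPM in CD3e T cells, 1128 to 1148 CPM in B220+ cells and 1014 to 1027 CPM in BM, again with no marker at 0. Jchain, given below, made up most of the plasma cell sum in MPP and CD3e T cells, but not in B220+ cells or BM. Of 8 T lineage markers the sum was 2798 to 2840.3 CPM in CD3e T cells and 109.7 to 112 CPM in BM. What part other cell types had in the Ighv levels was not tested.

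The constant region genes named the antibody classes beside these V reads. Ighm, the μ heavy chain, stood at 26861 ± 324 CPM in MPP, 8804 ± 146 in B220+ cells, 3372 ± 32.7 in CD3e T cells and 2572 ± 57.4 in BM. Ighd, the δ chain of mature naive B cells, was at 914 ± 9.56 CPM in B220+ cells, 130.0 ± 1.73 in CD3e T cells, 1.97 ± 0.214 in MPP and 79.5 ± 4.28 in BM. Igha, the α chain of IgA, was highest in CD3e T cells at 13307 ± 85.1 CPM, against 5053 ± 63.6 in MPP, 563 ± 6.33 in B220+ cells and 1483 ± 22.0 in BM. Jchain, which links IgM and IgA multimers and marks antibody-secreting cells, was at 7369.6 ± 108 CPM in MPP and 3257 ± 20.1 in CD3e T cells, against 244 ± 1.64 in B220+ cells and 492 ± 5.50 in BM.

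The populations also differed in how evenly they used the segments. The effective number of segments, the inverse Simpson index of the shares, says how many equally used segments would give the same concentration. It was 27.5 ± 2.55 in LT-HSC, 6.12 ± 0.0891 in ST-HSC, 21.7 ± 0.991 in MPP, 14.3 ± 1.20 in CMP, 29.8 ± 0.672 in GMP and 22.9 ± 4.45 in MEP. It was 34.4 ± 2.35 in CLP, 20.1 ± 0.371 in CD11b+ cells, 45.9 ± 0.802 in B220+ cells, 27.7 ± 0.228 in CD3e T cells and 33.4 ± 0.461 in BM. B220+ cells had the most even usage, with every library above every library of the others, and ST-HSC the most concentrated, with every library below the others. CMP were next above ST-HSC without overlap, while the order among the remaining populations is less clear. CLP overlapped BM, LT-HSC overlapped CD3e T cells, GMP and MEP, and MEP also overlapped MPP and CD11b+ cells. With 194 to 247 Ighv counts per library in GMP and 142 to 218 in MEP, the index there is limited by few reads.

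In MPP, Ighv1-58 took the largest share. It took 14.7%, 16.3% and 14.7% of Ighv counts and stood at 1753, 1968 and 1727 CPM, with 78458 counts over the 3 libraries. In B220+ cells the same segment was at 18.9, 20.01 and 19.4 CPM, in CD3e T cells at 1.83, 1.80 and 2.29 CPM, and in BM at 5.02, 6.27 and 4.21 CPM. All 3 MPP libraries were thus far above the other libraries. Ighv1-80 (941, 857 and 862 CPM) and Ighv1-55 (660.5, 694 and 695 CPM) followed, and the 5 leading segments of each library together took 35.4% to 36.7%. Ighv11-2 was at 393, 384 and 382 CPM in MPP, at 10.5, 10.99 and 10.6 CPM in B220+ cells, at 0.269, 0.505 and 0.586 CPM in CD3e T cells and at 18.0, 20.9 and 21 CPM in BM.

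CD3e T cells were led by Ighv6-3, with 9.31%, 9.37% and 9.02% of Ighv counts. Its level was 460.3, 461 and 439 CPM there, 103, 104 and 90.9 CPM in MPP, 23.7, 22.7 and 23.7 CPM in B220+ cells and 5.25, 4.88 and 4.61 CPM in BM. The other leading segments were Ighv1-72 at 291, 290.1 and 286 CPM and Ighv10-3 at 263, 259 and 269 CPM. Family Ighv6, of 3 members, held 9.25% ± 0.184 of Ighv counts in CD3e T cells, nearly all of it on Ighv6-3. The family held 2.10% ± 0.0418 in B220+ cells, 1.03% ± 0.0362 in MPP and 0.875% ± 0.159 in BM. Its share was higher still in LT-HSC, at 11.9% ± 2.13 of few reads, and population means elsewhere were 0.906% (CD11b+ cells) to 4.24% (GMP).

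B220+ cells were led by Ighv1-26, with a smaller share than the leading segments of MPP and CD3e T cells. Ighv1-26 took 7.23%, 6.83% and 6.59%, at 122, 115 and 109 CPM, followed by Ighv2-2 (61.4, 60.0 and 60.4 CPM) and Ighv1-53 (63.0, 58.9 and 58.7 CPM). The last 2 had under 50% unique windows. BM was led by Ighv1-55 (54.8, 57.5 and 52.5 CPM), Ighv1-26 (52.8, 54.8 and 50.9 CPM) and Ighv5-17 (42.4, 43.8 and 45.2 CPM). Ighv1-26 stood among the 6 with the largest shares in LT-HSC, MPP, GMP, MEP, CLP, CD11b+ cells, B220+ cells and BM.

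CD11b+ cells were led by Ighv1-50 (30.1, 32.7 and 27.7 CPM), Ighv1-26 (28.1, 26.2 and 26.1 CPM) and the pseudogene Ighv1-41. Ighv1-41 was at 24.5, 25.9 and 27.0 CPM in CD11b+ cells and at 7.87, 6.43 and 6.98 CPM in BM. In every library of the other 9 populations it was at 1.58 CPM or lower, and CMP had no count. Its exon had 92.7% unique windows, while that of Ighv1-50 had 33.2%.

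ST-HSC used few segments. Ighv1-12 took 26.9%, 26.4% and 25.0% of the Ighv counts, Ighv1-80 20.7%, 21.9% and 22.5%, and Ighv1-56 18.6%, 18.6% and 20.6%. The 5 leading segments of each library held 78.9% to 80.5%. The levels were low: Ighv1-12 was at 179, 189 and 186 CPM in MPP and at 15.2, 14.9 and 14.1 CPM in ST-HSC. It was at 10.1 ± 0.761 CPM in B220+ cells and had 2 counts over the 3 LT-HSC libraries. Ighv1-56 was at 54.6, 54.8 and 54.4 CPM in MPP, at 10.5, 10.5 and 11.6 CPM in ST-HSC and had no count in LT-HSC, which allows up to 0.0314 CPM (3 counts over the group, counting error only). Of the 120 segments, 47 had no count in ST-HSC. The κ light chain V segments were concentrated there as well, with an effective number of 2.08 ± 0.0224 among 160 Igkv genes and 62.6% ± 0.694 of their counts on Igkv4-55.

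**Figure D2:**
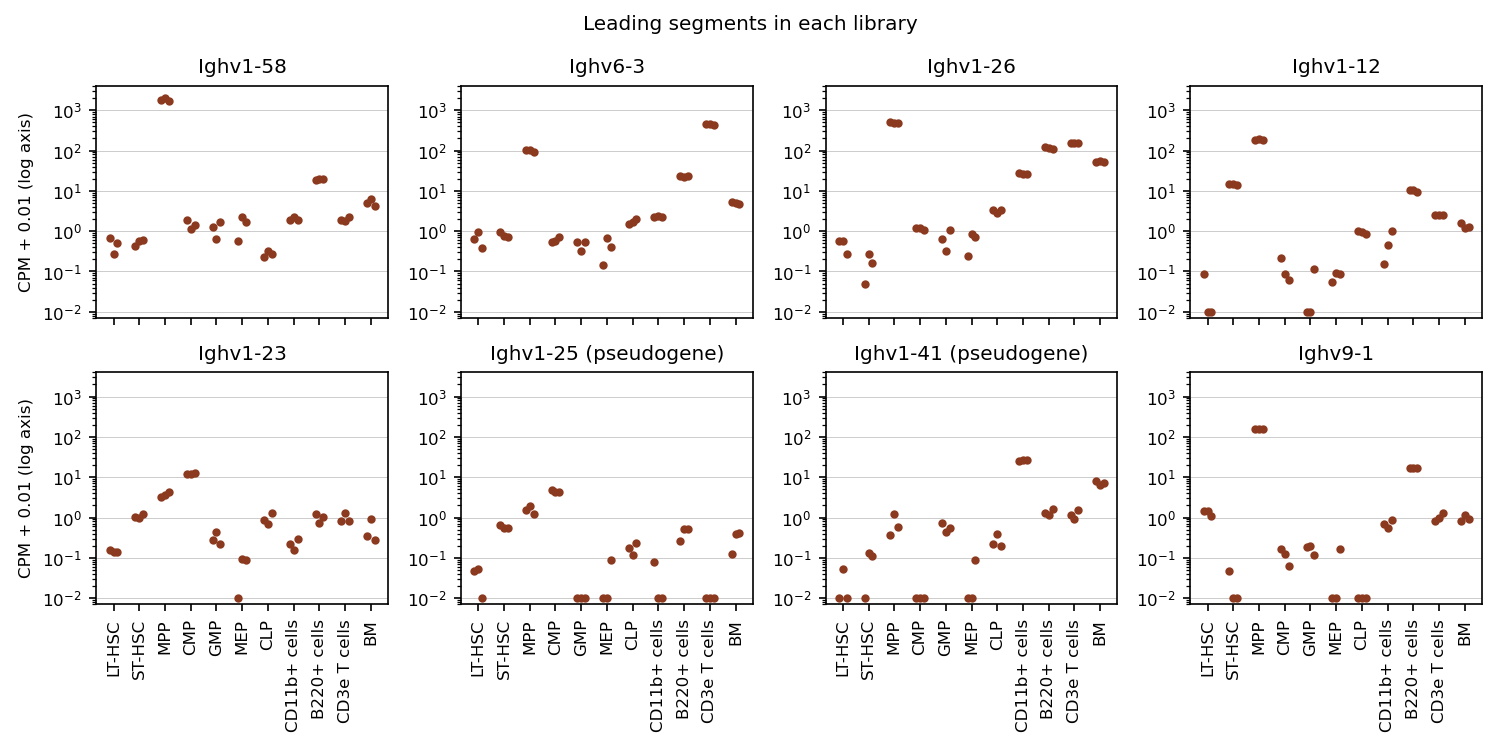
Level of 8 segments in every library, as CPM plus 0.01 on a log axis, with the 3 libraries of each population as points from LT-HSC at the left to BM at the right. Ighv1-58 is highest in MPP, Ighv6-3 in CD3e T cells, Ighv1-23 and the pseudogene Ighv1-25 in CMP, and the pseudogene Ighv1-41 in CD11b+ cells. Ighv1-12 is highest in MPP, with means near 14.7 CPM in ST-HSC and 10.1 CPM in B220+ cells.

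CMP were led by a segment that stayed low elsewhere. Ighv1-23 took 17.9%, 18.3% and 19.6% of the Ighv counts of CMP and was at 12.2, 12.3 and 13.0 CPM, against 3.14, 3.70 and 4.26 CPM in MPP, and it was below 1.3 CPM in every library of the other 9 populations. Ighv1-77 followed with 12.2%, 10.5% and 12.7%, and then the pseudogene Ighv1-25 with 6.88%, 6.53% and 6.55%. Ighv1-25 was at 4.69, 4.38 and 4.36 CPM in CMP, at 1.5, 1.89 and 1.21 CPM in MPP, and had no count in CD3e T cells or GMP.

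The other progenitor libraries held few Ighv reads. In CLP the leaders were Ighv7-3 (4.83, 4.44 and 3.6 CPM), Ighv4-1 (3.97, 4.70 and 4.18 CPM) and Ighv1-39 (3.81, 3.38 and 3.02 CPM). LT-HSC were led by Ighv9-1 at 1.42, 1.41 and 1.08 CPM, a segment with no count in CLP and 160.4, 159 and 161 CPM in MPP, and then by Ighv6-3 and Ighv6-6. GMP were led by Ighv1-72 (2.10, 1.06 and 1.16 CPM), Ighv1-58 and Ighv1-22. By mean CPM, MEP were led by Ighv1-58 (0.548, 2.22 and 1.72 CPM), Ighv11-2 (1.14, 1.23 and 1.72 CPM) and Ighv1-55. By mean share of Ighv counts Ighv11-2 came before Ighv1-58 in MEP (11.8% ± 5.42 and 10.6% ± 1.98), with 62 and 61 counts. In LT-HSC, GMP and MEP only 3, 1 and 2 segments reached 50 counts, so the order of segments there rests on few reads.

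**Figure D3:**
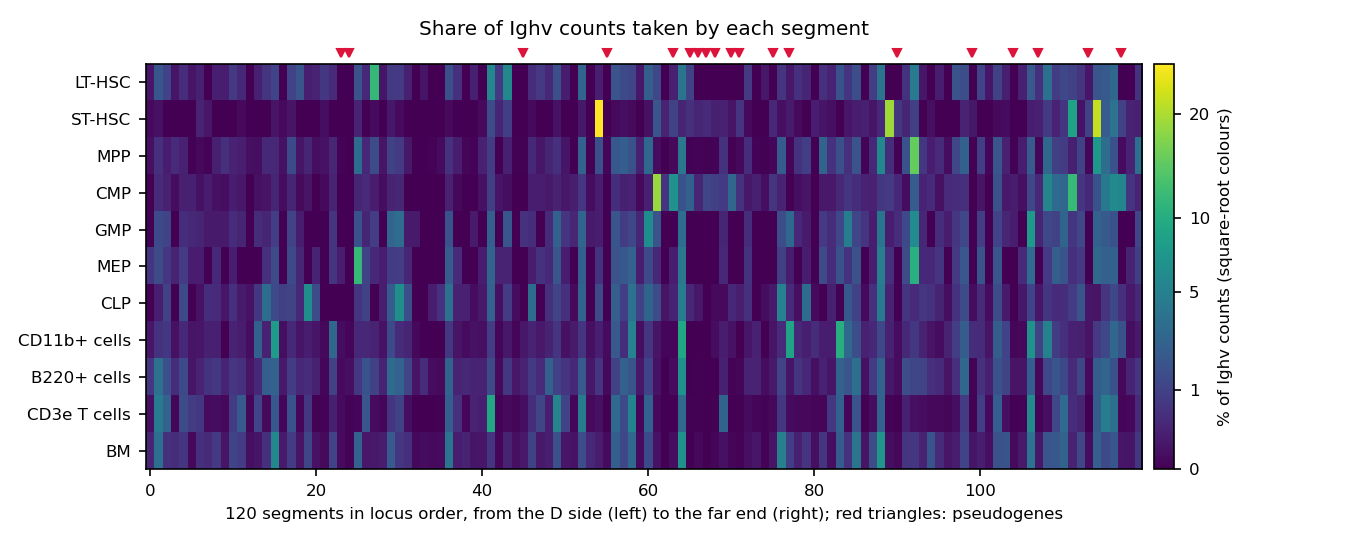
Mean share of Ighv counts taken by each of the 120 segments (columns, in their order along the locus from the D side) in each population (rows), with colours on a square-root scale and red triangles over pseudogenes. ST-HSC have a few bright columns at Ighv1-12, Ighv1-56, Ighv1-77 and Ighv1-80. CMP have their largest shares at Ighv1-23, Ighv1-77 and the pseudogene Ighv1-25, and B220+ cells have a more even row.

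Shares of family classes, named for their rough position along the locus, separated ST-HSC and CMP from the rest. The classes follow family names, and some members of other families lie among Ighv1 segments. In ST-HSC the leading segments, all of family Ighv1, took mean shares of 26.1%, 21.7% and 19.2% of Ighv counts. Whether position itself set the shares was not tested. The distal families Ighv1 and Ighv8 (73 members) held 56.8% ± 5.32 of Ighv counts in LT-HSC, 96.3% ± 0.626 in ST-HSC, 85.2% ± 0.244 in MPP, 94.1% ± 0.828 in CMP, 73.6% ± 3.56 in GMP and 67.6% ± 0.728 in MEP. The share was 55.6% ± 0.313 in CLP, 77.3% ± 1.37 in CD11b+ cells, 62.3% ± 0.332 in B220+ cells, 59.6% ± 0.167 in CD3e T cells and 67.2% ± 0.897 in BM. The proximal families Ighv2 and Ighv5 (17 members) held 0.539% ± 0.218 in ST-HSC, 3.14% ± 0.0458 in MPP, 2.03% ± 0.520 in CMP and 10.4% ± 0.964 in CLP, but 13.3% ± 0.681 in CD11b+ cells, 16.0% ± 0.190 in B220+ cells, 15.9% ± 0.221 in CD3e T cells and 15.3% ± 0.309 in BM. Among smaller families, Ighv4 in CLP and Ighv9 in LT-HSC stood out, each largely through 1 segment. Ighv4, with 2 members, held 6.47% ± 0.539 in CLP, where Ighv4-2 had no count, and at most 1.16% ± 0.05 elsewhere (BM). Ighv9, with 4 members, held 12.9% ± 1.78 in LT-HSC and 4.76% ± 0.0427 in B220+ cells. Of the Ighv counts of LT-HSC, 11.6% ± 1.11 were on Ighv9-1 alone, with only 120 counts over the 3 libraries.

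A pair of stretches of the locus, apart from each other and chosen after their values were seen, held most Ighv counts of CMP. The 11 members from Ighv1-23 to Ighv1-33, of which 7 are pseudogenes, held 35.2% to 38.0% of the Ighv counts in the CMP libraries, and population means of 4.73% (MPP) to 9.55% (CD11b+ cells) elsewhere. Pseudogenes of this stretch alone held 14.8% ± 0.915 in CMP, against 0.0299% ± 0.0035 in MPP, 3.07% ± 0.311 in ST-HSC and 1.22% ± 0.238 in CLP. The stretch from Ighv1-77 to Ighv1-83 held 30.2% ± 1.88 in CMP, 13.7% ± 0.369 in MPP and 38.5% ± 0.248 in ST-HSC, and 5.05% (CLP) to 11.2% (CD3e T cells) in the others.

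The share of Ighv counts on pseudogenes differed between populations, and this share also depends on the number of other Ighv reads. Pseudogene counts per library had means of 582 in CD11b+ cells, 419 in CMP, 295 in B220+ cells, 150 in BM and 146 in MPP. The means were 121 in ST-HSC, 118 in CD3e T cells and 34.7 or fewer in CLP, GMP, LT-HSC and MEP. Pseudogenes took 22.2%, 20.3% and 23.9% of the Ighv counts in the CMP libraries, 11.9%, 12.4% and 12.8% in CD11b+ cells and 7.18%, 6.05% and 6.41% in ST-HSC. Of the other populations, they took 1.86% ± 0.493 in LT-HSC, 0.0852% ± 0.00809 in MPP, 4.34% ± 1.29 in GMP, 0.493% ± 0.853 in MEP, 2.40% ± 0.326 in CLP, 0.112% ± 0.0125 in CD3e T cells, 0.704% ± 0.0879 in B220+ cells and 1.57% ± 0.0778 in BM. The 13 members with a stop codon in frame held 20.3% of the summed Ighv counts of CMP, 0.0663% of MPP, 5.33% of ST-HSC, 3.34% of CD11b+ cells and 0.0385% of CD3e T cells. In CD11b+ cells the leading pseudogene was Ighv1-41, while Ighv1-83 was at 5.57, 4.39 and 4.66 CPM in CD11b+ cells, 3.95, 2.99 and 4.20 CPM in CMP and 0.570, 0.774 and 0.790 CPM in BM. Ighv1-27, the leading pseudogene of LT-HSC, was at 0.186, 0.128 and 0.0443 CPM there and at 1.90, 1.34 and 1.78 CPM in CMP. Ighv1-2 led the pseudogenes of B220+ cells (3.91, 4.63 and 4.43 CPM) and CD3e T cells (1.67, 1.44 and 1.86 CPM). In MEP the pseudogenes Ighv4-2, Ighv1-25 and Ighv1-41 had 1 count each.

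**Figure D4:**
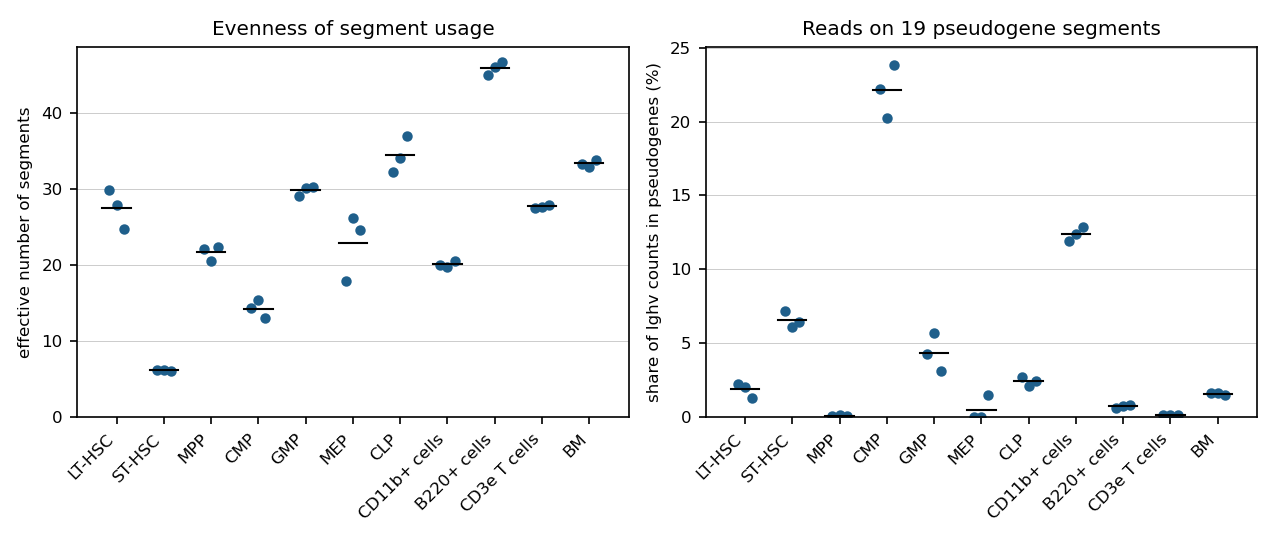
Left, effective number of segments (inverse Simpson index of the shares) and right, percent of Ighv counts on the 19 pseudogene members, each for 3 libraries per population (points) with the mean (bar). ST-HSC are lowest at 6.12 and B220+ cells highest at 45.9 on the left, and CMP at 22.1% and CD11b+ cells at 12.4% stand above the rest on the right.

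The segments were then compared between populations in a fit of all genes by edgeR's quasi-likelihood test with Benjamini-Hochberg adjustment over 20464 genes, where 113 of the 120 segments passed the filter on low counts. A segment high in 1 population could pass the filter through that population alone, so the counts of calls describe these libraries and the members that passed. Comparisons with BM share the BM libraries, and those with MPP share the MPP libraries. The background is high, with 59.3% to 82.0% of all tested genes called in either direction.

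In B220+ cells, the fraction named for a B cell antigen, 86 segments were higher than in BM and 10 lower, with 17 not passing. Among all genes 36.2% were higher and 35.7% lower, 71.8% in either direction. The median log2 fold change was 1.38 over the segments, also with the 3 that had a group at 0 set to their bound, and -0.02 over all genes. Ighv14-3 was at 28.7, 27.3 and 26.6 CPM in B220+ cells and at 0.685, 0.774 and 1.12 CPM in BM, without overlap (log2 fold change 4.92, SE 0.14, adjusted p = 3.32e-61). Ighv1-5 was 26.8-fold higher (41.1 ± 1.86 against 1.495 ± 0.140 CPM) and Ighv9-1 17.2-fold higher (17.0 ± 0.241 against 0.961 ± 0.185 CPM). The largest falls among segments of 10 CPM or more without overlap were Ighv1-39 (18.2 ± 1.32 against 38.4 ± 3.01 CPM, log2 fold change -1.08), Ighv11-2 (10.7 ± 0.251 against 19.98 ± 1.69 CPM, -0.92) and Ighv1-61 (8.17 ± 0.253 against 13.7 ± 1.01 CPM, -0.74). Scaling by library size alone left 5 lower segments and took Ighv1-61 to -0.10 (adjusted p = 0.345). All 14 B lineage markers were higher, and of 10 plasma cell markers 6 were higher and 2 lower. All 8 T lineage markers were higher too, at 441 to 464 CPM in sum in B220+ cells and 110 to 112 CPM in BM, and all 7 myeloid and 4 erythroid markers were lower. Their part in the Ighv values was not tested.

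**Figure D5:**
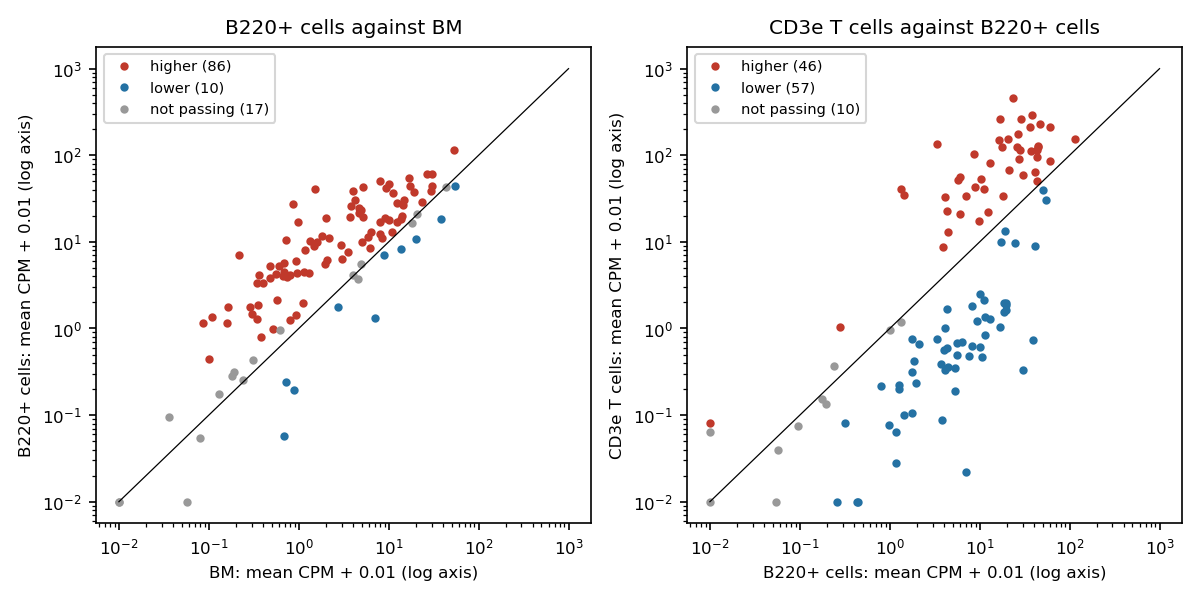
Mean level of each tested segment in B220+ cells against BM (left) and in CD3e T cells against B220+ cells (right), as CPM plus 0.01 on log axes, with the line of equal levels. Red points were higher, blue points lower and grey points did not pass at an adjusted p of 0.05 by edgeR. On the left 86 points are higher and 10 lower, and on the right 46 and 57, scattered to both sides of the line.

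CD3e T cells differed from BM in both directions, with 56 segments higher, 37 lower and 20 not passing, against 35.5% higher and 36.8% lower of all genes (72.3% in either direction). A fit of only these populations gave 23 lower of the 83 segments it tested. Over the segments the median log2 fold change was 0.60 as fitted and 0.56 with 6 at their bound, against -0.04 over all genes. Ighv2-4 was at 41.9, 40.1 and 41.5 CPM in CD3e T cells and at 0, 0.232 and 0.0658 CPM in BM (log2 fold change 8.49, SE 0.19, adjusted p = 6.80e-74), without overlap. Ighv1-31 was 306-fold higher (135 ± 1.56 against 0.387 ± 0.272 CPM) and Ighv8-5 104-fold higher (34.4 ± 0.555 against 0.291 ± 0.212 CPM). Lower were Ighv11-2 (43.3-fold, 0.454 ± 0.165 against 19.98 ± 1.69 CPM), Ighv1-61 (22.1-fold, 0.615 ± 0.0235 against 13.7 ± 1.01 CPM) and Ighv1-54 (8.55-fold, 1.29 ± 0.0473 against 10.8 ± 1.85 CPM). Of the markers, 4 of 14 B lineage genes were higher and 10 lower, and 8 of 10 plasma cell genes were higher and 1 lower. All 8 T lineage markers were higher, 6 of 7 myeloid markers were lower and 1 higher, and all 4 erythroid markers were lower.

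Set against B220+ cells directly, CD3e T cells had 46 segments higher, 57 lower and 10 not passing, against 35.5% higher and 34.9% lower of all genes (70.4% in either direction). Their median log2 fold change was -0.72 as fitted and -0.61 with 7 at their bound, against 0 over all genes, although the summed share was higher. Ighv1-31 was at 136, 134 and 133 CPM in CD3e T cells and 3.84, 2.97 and 3.13 CPM in B220+ cells (log2 fold change 5.38, SE 0.06, adjusted p = 5.85e-106). Ighv2-4 was 30.2-fold and Ighv8-5 23.0-fold higher. Ighv1-52 was 97.2-fold lower, at 0.215, 0.217 and 0.533 CPM in CD3e T cells and 31.2, 31.0 and 29.6 CPM in B220+ cells. Under 50% of the windows were unique in Ighv2-4 and in Ighv1-52, so their reads may be split with near copies. Ighv5-16 (0.723 ± 0.191 against 38.8 ± 1.96 CPM) was 53.4-fold and Ighv11-2 23.0-fold lower. The segments scatter to both sides of equality in the plot of CD3e T cells against B220+ cells. All 14 B lineage markers were lower, and of 10 plasma cell markers 5 were higher and 4 lower. Of 8 T lineage markers 7 were higher and 1 lower, of 7 myeloid markers 6 were higher and 1 lower, and all 4 erythroid markers were higher.

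In CD11b+ cells 10 segments were higher than in BM, 75 lower and 28 did not pass, against 32.6% higher and 35.4% lower of all genes (68.0% in either direction), with a median log2 fold change of -1.65 as fitted and -1.59 with 6 at their bound (-0.10 over all genes). Ighv1-41 was 3.69-fold higher (log2 fold change 1.88, SE 0.10, adjusted p = 3.24e-36), and Ighv1-50 1.76-fold (30.2 ± 2.51 against 17.3 ± 0.166 CPM). Of the 16 pseudogenes tested, 4 were higher and 3 lower. Ighv1-61 was 58.8-fold lower (0.226 ± 0.146 against 13.7 ± 1.01 CPM), Ighv1-39 32.8-fold (1.15 ± 0.209 against 38.4 ± 3.01 CPM) and Ighv11-2 22.1-fold (0.934 ± 0.250 against 19.98 ± 1.69 CPM). All 14 B lineage markers were lower, at 333 to 345 CPM in sum against 1723 to 1762 CPM in BM, and of 10 plasma cell markers 2 were higher and 6 lower. No T lineage marker was higher and 7 of 8 were lower, 3 of 7 myeloid markers were higher and 3 lower, and all 4 erythroid markers were lower.

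In MPP 88 segments were higher than in BM, 13 lower and 12 did not pass, against 34.0% higher and 36.7% lower of all genes (70.7% in either direction), with a median log2 fold change of 3.13 as fitted and 3.07 with 5 at their bound (-0.05 over all genes). Ighv1-58 was 353-fold higher (1816 ± 132 against 5.17 ± 1.04 CPM, log2 fold change 8.47, SE 0.09, adjusted p = 7.73e-30). Ighv1-56 was 197-fold (54.6 ± 0.214 against 0.275 ± 0.171 CPM) and Ighv8-5 191-fold higher (63.1 ± 2.92 against 0.291 ± 0.212 CPM). Among lower segments, Ighv5-17 alone was at 10 CPM or more without overlap, at 39.6, 41.7 and 36.6 CPM in MPP and 42.4, 43.8 and 45.2 CPM in BM (log2 fold change -0.17, adjusted p = 0.00454). The lower calls numbered 7 of 93 segments tested in a fit of only these populations. The call of Ighv5-17 did not hold without MPP replicate 3 (-0.11, adjusted p = 0.130) or without BM replicate 3 (-0.15, adjusted p = 0.0502), and with library size alone the value was 0.01. All 14 B lineage markers were lower in MPP, and 8 of 10 plasma cell markers were higher and 1 lower. Of 8 T lineage markers 1 was higher and 6 lower, of 7 myeloid markers 2 were higher and 4 lower, and all 4 erythroid markers were lower.

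From stem cells to MPP, 101 segments were higher in MPP than in ST-HSC, 2 were lower (the pseudogenes Ighv1-29 and Ighv8-7, named after their values were seen) and 10 did not pass, against 33.6% higher and 40.0% lower of all genes (73.6% in either direction). The median log2 fold change was 10.3 as fitted and 9.18 with the 44 segments that had a group at 0 set to their bound, against -0.11 over all genes. Ighv1-50 was at 186, 187 and 181 CPM in MPP and had no count in ST-HSC, at least 6115-fold higher when 3 counts in the summed ST-HSC libraries are taken as the limit. By the same limit Ighv1-63 (143 ± 3.48 CPM in MPP) was at least 4740.1-fold higher and Ighv1-47 (107 ± 11.8 CPM) at least 3553-fold. The segments leading ST-HSC were themselves higher in MPP, Ighv1-12 at 185 ± 5.35 against 14.7 ± 0.596 CPM and Ighv1-80 at 887 ± 47.1 against 12.2 ± 0.494 CPM. All 10 plasma cell markers were higher in MPP, at 8192 to 8435 against 328 to 332 CPM in sum with Mzb1 at 0 in ST-HSC, and 11 of 14 B lineage markers were higher and 3 lower, with Fcmr at 0 in ST-HSC. Of 8 T lineage markers 5 were higher and 2 lower, of 7 myeloid markers 6 were higher and 0 lower, and of 4 erythroid markers 1 was higher and 2 lower. The lower calls number 0 without MPP replicate 3, 0 of 88 segments tested in a fit of only these populations, 1 by DESeq2 and 6 with library size alone.

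CMP set against MPP had 8 segments higher, 95 lower and 10 not passing, against 35.0% higher and 35.0% lower of all genes (70.0% in either direction). The median log2 fold change was -8.26 as fitted and -7.72 with 17 segments at their bound, against 0.01 over all genes. The 8 higher segments were Ighv1-23, the pseudogenes Ighv1-25, Ighv1-27, Ighv1-29, Ighv1-30, Ighv1-32 and Ighv1-83, and Ighv15-2, of which Ighv1-29, Ighv1-30, Ighv1-32 and Ighv15-2 were named after their values were seen. Apart from Ighv1-83 and Ighv15-2, these lie in the stretch from Ighv1-23 to Ighv1-33, which was itself chosen after the values were seen. Other members of that stretch had far fewer counts in CMP, such as Ighv1-26 (93 in CMP, 21334 in MPP) and Ighv1-31 (42 and 2818). Ighv1-23 was 3.36-fold higher (12.5 ± 0.480 against 3.70 ± 0.559 CPM, log2 fold change 1.75, SE 0.11, adjusted p = 3.27e-29), and Ighv1-25 had a log2 fold change of 1.57 (adjusted p = 8.29e-14). Ighv15-2 had 13 counts in CMP and 0 in MPP, with overlapping libraries. Lower were Ighv1-49 (0.0814 ± 0.0708 against 316 ± 16.4 CPM, 3123-fold) and Ighv1-22 (0.138 ± 0.0305 against 358 ± 17.1 CPM, 2611-fold), and Ighv8-8 had 2 counts in CMP and 195 ± 3.13 CPM in MPP. Dntt, the terminal transferase that adds bases at V(D)J joints, was at 2458 ± 14.7 CPM in CMP and 331 ± 7.38 CPM in MPP (log2 fold change 2.89, adjusted p = 8.20e-26). Of 15 V(D)J recombination genes 11 were higher and 3 lower. The summed level of these 15 genes was not particular to CMP. It was 4379 CPM on average in CMP, 4800 in MEP, 4283 in GMP, 3592 in MPP and 1989 in CLP. Of 10 plasma cell markers 1 was higher and 9 lower, and of 14 B lineage markers 3 were higher and 8 lower. Of 8 T lineage markers 3 were higher and 4 lower, of 7 myeloid markers 0 were higher and 6 lower, and of 4 erythroid markers 1 was higher and 3 lower.

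GMP had 0 segments higher than MPP and 100 lower, with 13 not passing, against 26.1% higher and 33.1% lower of all genes (59.3% in either direction). The count of 0 by edgeR was also 0 at an unadjusted p below 0.05 and 0 by DESeq2. As a median, the log2 fold change was -8.83 as fitted and -7.95 with 33 segments at their bound, against -0.17 over all genes. Ighv2-3 had no count in GMP and 40.1, 44.4 and 44.3 CPM in MPP, at least 528-fold lower. Ighv4-1 had no count in GMP either and 33.2 ± 1.17 CPM in MPP, at least 408-fold lower. Ighv1-12 had 1 count in GMP and 185 ± 5.35 CPM in MPP. Of 14 B lineage markers 1 was higher and 7 lower, and of 10 plasma cell markers 2 were higher and 8 lower, with a sum of 877 to 926 CPM in GMP against 8192 to 8435 CPM in MPP. No T lineage marker was higher and 6 of 8 were lower, 4 of 7 myeloid markers were higher and 3 lower, and all 4 erythroid markers were lower.

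Along the lymphoid branch, 104 segments were higher in B220+ cells than in CLP, 2 were lower (the pseudogenes Ighv1-27 and Ighv1-32, the second named after its values were seen) and 7 did not pass, against 39.5% higher and 42.5% lower of all genes (82.0% in either direction). The median log2 fold change was 5.06 as fitted and 4.87 with 20 segments at their bound, against -0.04 over all genes. Ighv1-50 was at 43.8, 44.0 and 46.4 CPM in B220+ cells and had no count in CLP, at least 971-fold higher. Ighv14-2 (17.1 ± 0.596 CPM) was at least 372-fold and Ighv9-1 (17.0 ± 0.241 CPM) at least 368-fold higher. Ighv4-1, a leader of CLP, was at 7.37, 6.71 and 7.02 CPM in B220+ cells and 3.97, 4.70 and 4.18 CPM in CLP. All 14 B lineage markers were higher in B220+ cells, at 10518 to 10695 against 71.1 to 73.5 CPM in sum, and so were all 10 plasma cell markers and all 8 T lineage markers. Of 7 myeloid markers 4 were higher and 3 lower, and of 4 erythroid markers 2 were higher and 2 lower. A fit of only these populations gave 0 lower of the 99 segments it tested.

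Genes of the recombination pathway and of the locus were counted in the same fit. Of 15 V(D)J recombination genes, 11 were higher and 4 lower in B220+ cells than in BM (median log2 fold change 0.57), and 5 were higher and 9 lower in MPP than in BM (-0.61). Of 18 octamer factor and Igh locus regulator genes, 13 were higher and 4 lower in B220+ cells than in BM (1.18), and 5 were higher and 12 lower in MPP than in BM (-0.71). Of all genes 36.2% were higher and 35.7% lower in B220+ cells than in BM, and 34.0% were higher and 36.7% lower in MPP than in BM. Reads on the J segments (Ighj), in CPM without normalization factors, stood at 39.8 ± 0.867 in CMP, 1.77 ± 0.574 in MPP, 6.81 ± 0.667 in CD3e T cells, 35.0 ± 0.152 in B220+ cells, 44.7 ± 0.628 in CLP and 9.81 ± 0.214 in BM. CLP and CMP, with under 0.01% of counts on V segments, were thus above MPP in J reads. Other populations under 0.01% stood far lower than CLP and CMP, at 2.14 ± 0.206 in GMP, 1.04 ± 0.232 in ST-HSC, 0.0838 ± 0.0908 in LT-HSC and 0.0383 ± 0.0332 in MEP. CD11b+ cells were at 2.29 ± 0.622. For each κ light chain V count (Igkv) there were 4.92 ± 0.689 Ighv counts in CMP, 1.52 ± 0.0373 in CD11b+ cells and 1.27 ± 0.0964 in LT-HSC, and population means of 0.840 to 1.03 in the others.

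Libraries of 1 population used segments in similar proportions where reads were many. Over segments with at least 20 counts in a pair, the chi-square per degree of freedom between libraries of 1 population was 0.945 to 1.43 in B220+ cells, 1.32 to 1.59 in CD3e T cells, 0.421 to 0.829 in ST-HSC, 0.622 to 1.41 in CMP, 0.753 to 1.23 in CD11b+ cells and 0.904 to 1.22 in BM, where counting noise alone gives about 1. It was 1.05 to 1.35 in CLP and 3.46 to 4.98 in MPP, where the counts are largest. In LT-HSC, GMP and MEP it was 1.07 to 7.98, over 2 to 8 segments a pair. The measure grows with read number, so population pairs are not ranked by it. Across segments, which are not independent replicates, the correlation of log2 shares (Pearson r) within a population was 0.999 in MPP, 0.998 to 0.999 in CD3e T cells and 0.994 to 0.996 in B220+ cells, against 0.773 to 0.785 between MPP and B220+ cells, 0.704 to 0.711 between CD3e T cells and B220+ cells, and -0.0801 to -0.0141 between ST-HSC and B220+ cells. The largest spreads of single segments beyond counting noise were all in MPP. Ighv1-58 had 24533, 23934 and 29991 counts, or 14.7%, 16.3% and 14.7% of Ighv counts (chi-square per degree of freedom 88.9), followed by Ighv1-80 (34.7), Ighv1-49 (20.97), Ighv1-15 (20.2) and Ighv1-47 (17.4). Replicate 2 was the high library for Ighv1-58 and the low one for Ighv1-80.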

How the data were processed

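The raw counts per gene were deposited by the authors for 33 libraries of polyadenylated RNA. Per the submitters' processing notes, cutadapt, HISAT2, HTSeq and DESeq2 were used with the build mm39; versions, annotation release and strandedness are not given in the sources used here, so reads of overlapping genes cannot be told apart. Gene IDs were given symbols, segment types and locus order from GENCODE M21 (GRCm38), which matched 52073 IDs; no coordinates were used. V exon sequences other than those shown are not reported here. All columns of the table matched a library by name. The members and lists were chosen with earlier results of these data known.

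Counts were filtered by group (filterByExpr), normalized by TMM factors and fitted over all 33 libraries, each population having its own mean, with edgeR 4.0.16 and its robust quasi-likelihood test in R 4.3.3 (22 residual degrees of freedom, adjusted p threshold 0.05). The code was tested on simulated data. Levels are scaled CPM, and intervals and floors cover counting error only. Segments named were the 3 with the highest mean CPM in each population, the 3 largest rises and falls per comparison at 10 CPM or more without overlap, the leading pseudogene per population, the 5 largest replicate spreads and the 3 on each side of the count minimum, 50 in all. The alternatives tried were DESeq2 1.42.0, factors by relative log expression, no factors beyond library size, no filter on low counts, dispersion estimated first, fits of the compared populations only, a replicate block, leaving out each library, and count minimums of 10 and 200.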

Additional observations from a re-analysis of the deposited data

How the results depend on the processing

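Of 234 alternative counts of segments called, 226 were within 1.5 times the value reported, and 516 of 520 fold changes of named segments stayed on the same side of zero and of the threshold. With only the 2 populations compared in the fit, which leaves fewer segments tested, lower calls numbered 23 of 83 (CD3e T cells against BM), 7 of 93 (MPP against BM), 0 of 99 (B220+ cells against CLP) and 0 of 88 (MPP against ST-HSC). With library size alone they numbered 5 (B220+ cells against BM) and 6 (MPP against ST-HSC), Ighv5-17 in MPP against BM turned to 0.0126, and the median of all genes was 0.58 in place of -0.02 (B220+ cells against BM), 0.53 in place of -0.04 (CD3e T cells against BM), 0.68 in place of 0.01 (CMP against MPP), -0.66 in place of -0.17 (GMP against MPP) and -1.09 in place of -0.11 (MPP against ST-HSC). Genes called higher and lower then numbered 11090 and 4403, 11070 and 4395, 13055 and 3107, 2444 and 11218, and 2273 and 15155 in these 5 comparisons, in the same order. DESeq2 gave 1 lower segment in MPP against ST-HSC, and leaving out each library gave 0 to 3. The cause was not tested.

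With a minimum of 10 counts (140 segments), ST-HSC gave a share of 0.00938% and an effective number of 6.27. With a minimum of 200 counts (99 segments), shares were 0.00888% (ST-HSC), 0.00826% (CMP) and 0.0208% (CD11b+ cells), effective numbers 5.62 (ST-HSC), 12.4 (CMP), 29.1 (GMP) and 19.6 (CD11b+ cells), and the largest shares 27.2% (ST-HSC) and 20.1% (CMP). Libraries with the same replicate number did not deviate together from their population means: the correlation of their deviations was -0.0488 to 0.092 over 165 pairs. Deviations made up mostly of counting noise would be uncorrelated in any case. The check therefore cannot decide whether such libraries share mice. The replicate block changed 2 counts, to 11 lower segments in B220+ cells against BM and 99 in GMP against MPP. Few Ighv reads in LT-HSC, GMP and MEP limit what can be seen there.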
